A study of Canis lupus familiaris with 29 samples.

Results

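The genes described here encode neurotrophins and their receptors, and are 6 of the 30951 genes in the count table. They were chosen by gene name and comprise the ligand genes BDNF and NTF3, the Trk receptor genes NTRK2 and NTRK3, the p75 receptor gene NGFR and the sortilin gene SORT1, all of which were found. The samples were 10 normal adrenal medullas (NAMs) from healthy research dogs, and pheochromocytomas and paragangliomas (PPGLs), tumors of chromaffin cells, from client-owned dogs, 7 of them in PPGL group 1 and 12 in PPGL group 2. The study drew these groups from a principal component plot of the same samples, so a p-value between them is a description of that split and no test of it. Tumors were taken at surgery or after euthanasia at several institutions and were frozen directly or after a stabilization solution, while NAMs were snap-frozen. Tissue, origin of the dogs and collection thus run together and cannot be told apart, and no library batch was named in the sources used here.

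Neurotrophins are secreted growth factors that keep sensory and sympathetic neurons alive and guide the growth of their axons. The mature factors bind Trk receptor tyrosine kinases, BDNF and neurotrophin-4 mainly TrkB and neurotrophin-3 mainly TrkC, while the precursors bind the p75 receptor together with sortilin. Chromaffin cells derive from the neural crest, as sympathetic neurons do, and the adrenal medulla is innervated by preganglionic sympathetic fibers.

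Counts summed to between 19258054 and 35918182 per sample in NAMs, between 18493540 and 31919833 in group 1 and between 18208718 and 24569667 in group 2. Levels are given as CPM (counts scaled to a common library total) after normalization by the trimmed mean of M-values (TMM). The lowest level that was read was taken as 3 counts, which in NAMs corresponded to between 0.0779 and 0.164 CPM and in the tumors to between 0.0895 and 0.175 CPM. Differences are given as log2 fold change (FC) with its standard error (SE) and the p-value adjusted by the Benjamini-Hochberg method over all genes tested (FDR), from the quasi-likelihood test of edgeR. A gene was called at an FDR below 0.05 against NAMs and below 0.1 between the PPGL groups. The comparisons of each group with NAMs share the same NAMs, so they are given side by side. An alternative fit with a replicate block takes same-numbered samples of different groups as matched. Nothing in the labels pairs them, and samples without a same-numbered partner then add nothing to a comparison. Calls gained or lost with this block are therefore given as a description only.

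The tissue labels were checked against marker genes. All 12 chromaffin cell markers were counted in the NAMs and in both PPGL groups. Their summed level had a lowest value of 17811 CPM, a median of 32293 CPM and a highest value of 96838 CPM in NAMs, against 8509, 34291 and 118336 CPM in group 1 and 20730, 49290 and 102862 CPM in group 2. CHGB, which encodes a granin of the secretory vesicles, was the most abundant in each. The granin level was far from uniform, however, and single tumors of group 1 fell to 27.1 CPM for CHGB and 2.15 CPM for the tyrosine hydroxylase gene TH.

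Markers of the adrenal cortex differed more. The 11 cortical markers summed to between 14390 and 69760 CPM in NAMs (median 37741 CPM), with the steroid enzyme gene CYP17A1 as the most abundant. In group 1 they summed to between 118 and 1191 CPM (median 295 CPM), led by STAR, and in group 2 to between 283 and 34604 CPM (median 3725 CPM), led by CYP17A1. None of the 11 was at or under 3 counts throughout a group. Of the 11, 10 were called lower in PPGLs than in NAMs (15.2% of all genes) and 10 lower in group 1 than in group 2 (2.95% of all genes). The cortical score, the mean log2 CPM of the 11, ran from 9.16 to 11.29 in NAMs, from 3.66 to 10.04 in group 2 and from 0.73 to 4.12 in group 1. It is thus nearly bound to the groups and does not overlap at all between group 1 and NAMs. A call lost or gained with it as a covariate therefore does not separate cortical tissue from the group itself. The NAMs thus held cortical transcripts, and tumors of group 2 held more of them than those of group 1. In bulk tissue, fewer cells of a type and less RNA per cell cannot be told apart.

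Of the 6 genes, all were tested between PPGLs and NAMs, where 1 was called higher (NTF3) and 1 lower (NTRK3). Across the 14766 genes tested, 22.3% were called higher and 15.2% lower. Between the groups, 5 of the 6 passed the low-count filter, and 1 was called higher in group 1 (NGFR) and 2 lower (NTRK3 and SORT1), against 3.97% and 2.95% of 14666 genes. In group 1 against NAMs, 2 were called higher and 2 lower, against 21.0% and 14.1% of 15201 genes, and in group 2 against NAMs 1 and 2, against 18.4% and 14.5%.

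**Figure D1:**
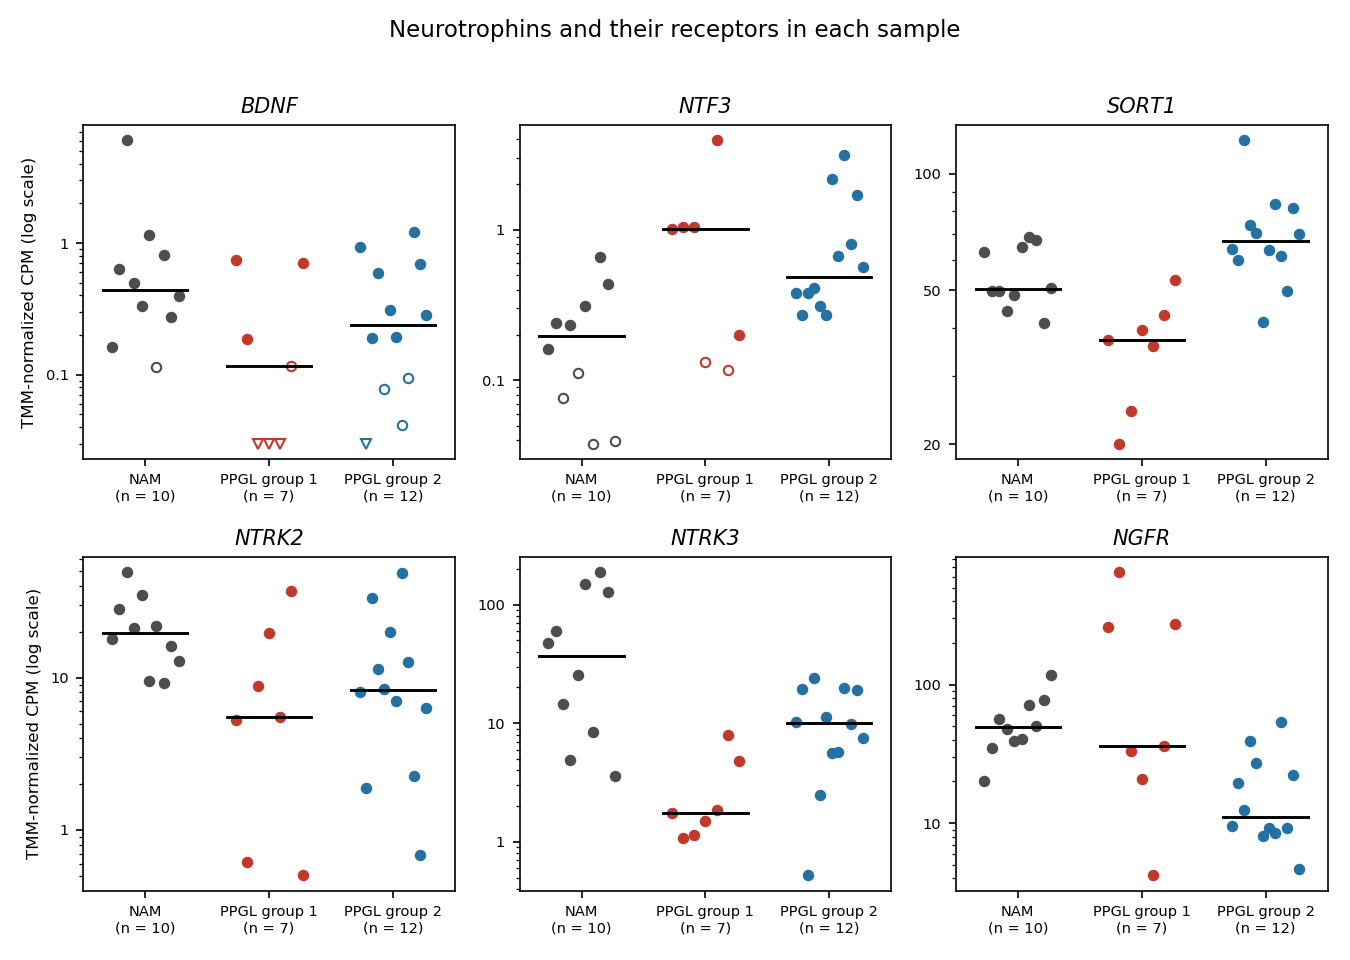
TMM-normalized CPM (log scale) of BDNF, NTF3, SORT1, NTRK2, NTRK3 and NGFR of each sample, with 12 tumors in PPGL group 2, 7 in PPGL group 1 and 10 NAMs. Each point is a sample and each bar a group median; open circles mark 1 to 3 counts and open triangles at the bottom mark 0 counts. NTRK3 reached 187 CPM in NAMs and at most 24.0 CPM in the tumors, and NGFR reached 646 CPM in group 1.

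NTF3 encodes neurotrophin-3, the ligand of TrkC, and lies on chromosome 27 from 39383152 to 39454601 of CanFam3.1 (minus strand, ENSCAFG00000015278), with 1414 exon bases counted. In NAMs its level had a lowest value of 0.0381 CPM (1 count, under the lowest level read), a median of 0.198 CPM and a highest value of 0.662 CPM. Of the 10 NAMs, 4 were at or under 3 counts. In group 1 the values ran from 0.117 to 3.91 CPM (median 1.01 CPM) and in group 2 from 0.271 to 3.105 CPM (median 0.487 CPM). The gene was thus sparse in both tissues, and 9 of the 19 PPGLs lay above every NAM and 17 above the median NAM. Values at or under 3 counts were not ranked against each other.

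NTF3 was higher in PPGLs than in NAMs (log2 FC 2.07, SE 0.58, FDR = 0.00581). Against the same NAMs, the log2 FC was 2.21 in group 1 (SE 0.67, FDR = 0.0116) and 1.98 in group 2 (SE 0.62, FDR = 0.0143). The groups themselves differed by a log2 FC of 0.24 (SE 0.67, FDR = 0.879), so the order of the means was group 1 (1.06 ± 1.33 CPM, SD, n = 7), group 2 (0.919 ± 0.914 CPM, SD, n = 12) and NAM (0.231 ± 0.198 CPM, SD, n = 10), and the first pair did not pass its threshold. Without replicate 5 of group 1 this order turned (log2 FC -0.60 between the groups), and with a replicate block the log2 FCs against NAMs were 2.24 in group 1 and 1.68 in group 2, neither of them called. Replicate 5 of group 1 was the highest tumor with 131 counts, and without it the log2 FC of group 1 was 1.35 and no longer passed the threshold (FDR = 0.109, and between 0.00628 and 0.109 over all samples left out). With the cortical marker score as a covariate, the log2 FC of NTF3 was 1.32 (SE 0.77) in PPGLs and 0.76 (SE 0.86) in group 2 against NAMs, and neither was called.

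BDNF encodes brain-derived neurotrophic factor, the ligand of TrkB (chromosome 21 from 48192670 to 48204480, minus strand, ENSCAFG00000010207, 972 exon bases). Its levels in NAMs had a lowest value of 0.114 CPM, a median of 0.443 CPM and a highest value of 6.03 CPM. In group 1 they ran from 0 to 0.745 CPM (median 0.117 CPM), with 4 of 7 tumors at or under 3 counts, and in group 2 from 0 to 1.22 CPM (median 0.237 CPM), with 4 of 12. The tissues overlapped, and replicate 3 of the NAMs stood apart with 158 counts, while the next highest NAM had 33.

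BDNF did not pass the test in PPGLs against NAMs (log2 FC -1.61, SE 0.66, FDR = 0.0545). Without replicate 3 of the NAMs the log2 FC was -0.52, while leaving out any of 8 other samples brought the FDR below 0.05, so that this value lay at the threshold and depended on few counts. Against NAMs the log2 FC was -2.02 in group 1 (FDR = 0.0930) and -1.42 in group 2 (FDR = 0.148), with ranges of -2.57 to -0.93 and -1.74 to -0.33 when each sample was left out. Among the tumors alone the gene had too few counts to be tested.

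NTF4, which encodes neurotrophin-4, belongs to a list of 11 further ligands and receptors of which 10 were found by name. It was at or under 3 counts in all 10 NAMs, in 2 of 7 tumors of group 1 and in 6 of 12 of group 2, with a highest value of 1.68 CPM, and did not pass the filter in any comparison. Its exons share 26 bases with KCNA7, whereas no gene in the table overlapped the exons of the 6 genes.

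NTRK3 encodes TrkC, the receptor of neurotrophin-3, and lies on chromosome 3 from 51138751 to 51513024 (minus strand, ENSCAFG00000011457, 3242 exon bases). In NAMs its level had a lowest value of 3.58 CPM, a median of 36.5 CPM and a highest value of 187 CPM. In group 1 the values ran from 1.08 to 7.93 CPM (median 1.75 CPM), and in group 2 from 0.522 to 24.0 CPM (median 10.0 CPM). NAMs were very unequal, with replicates 6, 8 and 9 at 148, 187 and 129 CPM and replicates 4, 7 and 10 under 10 CPM. All 19 PPGLs were below the median NAM, and 7 of them were below every NAM.

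NTRK3 was lower in PPGLs than in NAMs by a log2 FC of -2.94 (SE 0.58, FDR = 0.000291). The log2 FC against NAMs was -4.46 in group 1 (SE 0.84, FDR = 0.000156) and -2.48 in group 2 (SE 0.61, FDR = 0.00271). Group 1 was also lower than group 2 (log2 FC -1.97, SE 0.60, FDR = 0.0748), and all 7 of its tumors were below the median of group 2. The order of the means was therefore NAM (62.7 ± 67.3 CPM, SD, n = 10), group 2 (11.3 ± 7.62 CPM, SD, n = 12) and group 1 (2.87 ± 2.58 CPM, SD, n = 7), with each neighboring pair past its threshold. The step between the groups was weak. Its call was lost in the Mann-Whitney U-test, with a replicate block (log2 FC -1.48, SE 0.73) and when any of 8 tumors was left out. Leaving out replicate 4 of group 1 gave the highest FDR (0.121, lowest 0.0312 over all tumors left out).

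The order of the groups in NTRK3 was also that of the cortical markers. With the cortical score included, the log2 FC of PPGLs against NAMs was -0.98 (SE 0.86) and that between the groups -1.24 (SE 0.98), and neither was called. Within the 10 NAMs, NTRK3 and the cortical score had a Pearson r of 0.71 (permutation p = 0.0257, adjusted p = 0.165) and a Spearman rho of 0.70 (p = 0.0309, adjusted p = 0.185), and r was 0.74 without the 2 samples farthest from the median score. In the NAMs r was also -0.77 with the score of Schwann and sustentacular cells (permutation p = 0.0111, adjusted p = 0.101), but -0.44 without the 2 farthest samples, and -0.67 with that of chromaffin cells (permutation p = 0.0347, adjusted p = 0.190), with -0.68 without the 2 farthest. Over the 19 PPGLs r with the cortical score was 0.61 (permutation p = 0.00690, adjusted p = 0.0946), but within group 1 and within group 2 it was 0.26 and 0.31. With the fibroblast score it was 0.56 over the PPGLs (permutation p = 0.0116, adjusted p = 0.101) and 0.05 and 0.60 within the groups, and with the endothelial, leukocyte and mural cell scores it was 0.67, 0.57 and 0.54 within group 2 but -0.75, -0.48 and -0.69 within group 1. The part of cortical tissue in the difference of NTRK3 was not tested.

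NTRK2 encodes TrkB, the receptor of BDNF (chromosome 1 from 74449060 to 74777032, minus strand, ENSCAFG00000001380, 4222 exon bases). In NAMs its level had a lowest value of 9.17 CPM, a median of 19.6 CPM and a highest value of 49.2 CPM. In group 1 it ran from 0.503 to 37.3 CPM (median 5.49 CPM) and in group 2 from 0.690 to 48.4 CPM (median 8.26 CPM). Of the 19 tumors, 12 lay below every NAM and none above the highest NAM.

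The order of the means of NTRK2 was NAM (22.1 ± 12.5 CPM, SD, n = 10), group 2 (13.4 ± 14.3 CPM, SD, n = 12) and group 1 (11.1 ± 13.2 CPM, SD, n = 7), and no neighboring pair in this order passed its threshold in edgeR. The log2 FC was -0.82 in PPGLs against NAMs (SE 0.53, FDR = 0.230), -1.0 in group 1 against NAMs (FDR = 0.285), -0.73 in group 2 against NAMs (FDR = 0.363) and -0.27 between the groups (FDR = 0.884). The Mann-Whitney U-test, which compares ranks, did call it lower in PPGLs (FDR = 0.0294, with a range of 0.0294 to 0.830 over the alternatives). So did edgeR with a replicate block (log2 FC -1.48, SE 0.55, FDR = 0.0481), but nothing in the labels pairs the replicate numbers. The order of the PPGL groups turned without replicate 8 of group 2 (log2 FC 0.11) and with the cortical score included (0.74), neither of them called.

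NGFR encodes the p75 neurotrophin receptor, a member of the tumor necrosis factor receptor family that binds all neurotrophins and their precursors (chromosome 9 from 25601074 to 25623274, plus strand, ENSCAFG00000016934, 5972 exon bases). In NAMs its level had a lowest value of 20.1 CPM, a median of 49.2 CPM and a highest value of 117 CPM. In group 1 it ran from 4.20 to 646 CPM (median 36.1 CPM) and in group 2 from 4.68 to 53.8 CPM (median 11.1 CPM). Group 1 was thus uneven, with replicates 1, 2 and 7 at 261, 646 and 275 CPM, above every other sample of the series, and the other 4 tumors between 4.20 and 36.1 CPM, within or below the range of the NAMs. Of the 12 tumors of group 2, 8 were below every NAM and 11 below the median NAM.

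The means of NGFR fell from group 1 (182 ± 235 CPM, SD, n = 7) over NAM (55.5 ± 27.3 CPM, SD, n = 10) to group 2 (18.7 ± 14.9 CPM, SD, n = 12). It was higher in group 1 than in group 2 (log2 FC 3.30, SE 0.70, FDR = 0.0161) and lower in group 2 than in NAMs (log2 FC -1.58, SE 0.55, FDR = 0.0277). In group 1 against NAMs the log2 FC was 1.71 (SE 0.62, FDR = 0.0325), although the median of group 1 lay below that of the NAMs. In all PPGLs against NAMs the log2 FC was 0.51 (SE 0.71, FDR = 0.602), and this direction was not stable, with -0.22 without replicate 2 of group 1, -0.25 in DESeq2's Wald test, -0.56 with a replicate block and -3.09 after adjustment for the cortical score, the last of which was called. That score is nearly bound to the groups, so this call does not separate cortical tissue from the group itself. After the adjustment the log2 FC of NGFR was 2.48 (SE 1.68) between the groups, 0.50 (SE 2.06) in group 1 and -2.06 (SE 0.99) in group 2 against NAMs, and none of these was called.

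The higher mean of group 1 rested on these 3 tumors, which held 92.6% of its summed level. Against NAMs the log2 FC was 0.93 without replicate 2, 1.60 without replicate 1 and 1.59 without replicate 7 of group 1, and none of these was called, nor was it without replicate 1 or 6 of the NAMs (1.61 and 1.67). The Mann-Whitney U-test did not call the difference between the groups. With a replicate block no NGFR difference was called, with log2 FCs of 2.33 between the groups, 1.25 in group 1 and -1.64 in group 2 against NAMs. The call in group 2 against NAMs was lost without replicate 10 of the NAMs, their highest (log2 FC -1.39).

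Markers of Schwann and sustentacular cells, which are known to carry p75, were looked at beside NGFR. Of 11 markers 10 were found, of which PMP2 was at or under 3 counts in every sample and 8 were tested, and 0 of the 8 were called in any of the 4 comparisons (edgeR). Of all genes 22.3% were called higher and 15.2% lower in PPGLs against NAMs, but only 3.97% and 2.95% between the groups, and the median log2 FC of the list was -0.76 in PPGLs, -0.32 in group 1 and -1.13 in group 2 against NAMs, and 0.62 in group 1 against group 2. They summed to between 70.0 and 187 CPM in NAMs (median 120 CPM, most abundant CDH19), between 16.8 and 273 CPM in group 1 (median 56.2 CPM) and between 16.2 and 140 CPM in group 2 (median 42.2 CPM, most abundant ERBB3 in both). The 3 tumors of group 1 with the highest NGFR had sums of 97.3, 30.2 and 26.2 CPM, while the tumor with the highest sum, replicate 4, had 20.8 CPM of NGFR. Across group 2 the Pearson r of NGFR with the Schwann score was 0.62, and across group 1 it was -0.02.

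SORT1 encodes sortilin, a sorting receptor of the trans-Golgi network that binds proneurotrophins together with p75 (chromosome 6 from 42453942 to 42516740, plus strand, ENSCAFG00000019835, 3018 exon bases). It varied least of the 6 genes. Its level had a lowest value of 41.2 CPM, a median of 50.3 CPM and a highest value of 68.6 CPM in NAMs. In group 1 it ran from 20.1 to 53.3 CPM (median 37.2 CPM) and in group 2 from 41.4 to 122 CPM (median 66.9 CPM). Of the 7 tumors of group 1, 5 were below every tumor of group 2, and of the 12 tumors of group 2, 6 were above every NAM.

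SORT1 was lower in group 1 than in group 2 (log2 FC -0.95, SE 0.21, FDR = 0.0228) and lower in group 1 than in NAMs (log2 FC -0.60, SE 0.19, FDR = 0.0141). In group 2 against NAMs it did not pass the test (log2 FC 0.35, SE 0.16, FDR = 0.0977), and in all PPGLs against NAMs the log2 FC was 0.07 (SE 0.20, FDR = 0.807). The order of the means was group 2 (70.1 ± 20.2 CPM, SD, n = 12), NAM (54.8 ± 10.1 CPM, SD, n = 10) and group 1 (36.2 ± 11.2 CPM, SD, n = 7), and the first pair did not pass its threshold. Both calls held with each sample left out, with log2 FCs from -1.06 to -0.85 between the groups and from -0.71 to -0.49 against NAMs. The call between the groups was lost with a replicate block (log2 FC -0.95, SE 0.30) and with the cortical score included (log2 FC -1.34, SE 0.37). With that score the call in group 1 against NAMs was lost as well (log2 FC -0.99, SE 0.49), where the scores do not overlap.

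Between genes, levels were compared per kilobase of counted exon. In NAMs the mean level per kilobase was 19.3 for NTRK3, 18.2 for SORT1, 9.29 for NGFR and 5.24 for NTRK2 (CPM per kilobase, n = 10), while the ligand genes had 1.07 (BDNF, of which replicate 3 held 58.0%) and 0.163 (NTF3). By the median, which is less drawn by single samples, SORT1 came first at 16.7, before NTRK3 at 11.3 CPM per kilobase, and BDNF had 0.456. In group 1 the medians per kilobase were 12.3 for SORT1, 6.04 for NGFR, 1.30 for NTRK2 and 0.540 for NTRK3. In group 2 they were 22.2 for SORT1, 3.09 for NTRK3, 1.96 for NTRK2 and 1.85 for NGFR. NTRK3 thus had a higher median than NTRK2 in NAMs and in group 2, and a lower one in group 1.

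The genes whose pattern was most like each of the 6 over the 19 PPGLs were taken by Spearman rho among 12750 named genes, as a description. For NGFR these were SLC2A10 (rho 0.80, Pearson r 0.56), INSRR (0.79 and 0.75) and CRB2 (0.79 and 0.77). For NTRK3 they were CCDC69 (0.80 and 0.78), RBP4 (0.80 and 0.76) and BICC1 (0.79 and 0.74). For NTRK2 they were PSMF1 (0.80 and 0.70), TM9SF3 (0.80 and 0.71) and TNK2 (0.79 and 0.75). NTF3 was most like TLR4 (0.88 and 0.71), NRGN (0.86 and 0.78) and TRAF3IP3 (0.82 and 0.65). SORT1 was most like EDIL3 (0.85 and 0.78), SRL (0.84 and 0.76) and DPYD (0.84 and 0.72). BDNF did not pass the filter among the tumors and was left out.

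Of the 9 genes of the list of further ligands and receptors that were tested, 2 were called higher and 0 lower in PPGLs against NAMs, against 22.3% and 15.2% of all genes, with a median log2 FC of 0.27 against 0.13 over all genes. Among the higher was RTN4R, which encodes the Nogo receptor, a partner of p75 in growth cones (log2 FC 1.66, SE 0.54, FDR = 0.0165). Between the groups 2 of 9 were called higher in group 1 and 0 lower, against 3.97% and 2.95% of all genes, among them SORCS3, which encodes a relative of sortilin (log2 FC 3.98, SE 0.79, FDR = 0.0124). SORCS3 had a median of 2.76 CPM in group 1 and 0.329 CPM in group 2, and 3 tumors held 88.7% of its summed level in group 1.

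Neurotrophins are made as precursors that are sorted into vesicles and cleaved. Of the 14 genes listed for these steps, 12 were found and 9 tested, and in PPGLs against NAMs 0 were called higher and 1 lower, against 22.3% and 15.2% of all genes. This was FURIN, which encodes a protease that cleaves the precursors in the trans-Golgi network (log2 FC -0.77, SE 0.23, FDR = 0.00837). Between the groups 0 were called higher and 2 lower in group 1, against 3.97% and 2.95% of all genes. Among these was CPE, which encodes carboxypeptidase E, a sorting receptor of proBDNF (log2 FC -1.18, SE 0.32, FDR = 0.0453). The median log2 FCs of the list were -0.20 and 0.03, against 0.13 and 0.04 over all genes.

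Of the 16 tested genes that encode cytoplasmic partners of p75 or the secretases that cleave it (ADAM17 and the gamma-secretase), 2 (12.5%) were called higher and 2 (12.5%) lower in PPGLs, against 22.3% and 15.2% of all genes, and 0 in either direction between the groups (edgeR). The gamma-secretase subunit genes PSENEN and APH1A moved apart, with log2 FCs of 0.45 (FDR = 0.00350) and -0.94 (FDR = 5.73e-05). The adaptor gene TRAF6 was lower (log2 FC -0.55, FDR = 0.00178). The median log2 FC of the list was 0.02 between the tissues and 0.04 between the groups, against 0.13 and 0.04 over all genes.

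Of the 24 tested genes for adaptors and effectors of Trk receptors, 4 (16.7%) were called higher in PPGLs and 1 (4.17%) lower. The shares of all genes were 22.3% and 15.2%. The median log2 FC of the list was 0.15, against 0.13 over all genes. The higher genes were FRS3 (log2 FC 1.20, FDR = 0.000129), GAB2 (0.98, FDR = 0.00667), GAB1 (0.76, FDR = 0.0267) and GRB2 (0.45, FDR = 0.00151). SH2B2, another adaptor gene, was lower (log2 FC -1.15, FDR = 0.00403). Between the groups 1 was called higher and 1 lower in group 1, against 3.97% and 2.95% of all genes, with a median log2 FC of -0.08 against 0.04. SHC3, which encodes the Shc adaptor of neurons, was higher (log2 FC 3.42, SE 0.89, FDR = 0.0405) with a median of 2.45 CPM in group 1, 1.05 CPM in group 2 and 14.4 CPM in NAMs. In group 1, 3 tumors held 93.7% of its summed level, and its lowest value was 0. The broadly expressed SHC1 was lower (log2 FC -0.73, FDR = 0.0940).

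Genes that Trk signaling is known to induce are also induced by many other stimuli. Collection differed between tumors and NAMs, and its part in the values of these genes was not tested. Of the 16 tested, 5 (31.25%) were called higher and 2 (12.5%) lower in PPGLs against NAMs, against 22.3% and 15.2% of all genes, with a median log2 FC of 0.62 against 0.13. In group 1 against NAMs, 1 was called higher and 4 lower (21.0% and 14.1% of all genes, median log2 FC of the list -0.05). In group 2 against the same NAMs, 6 were called higher and 1 lower (18.4% and 14.5%, median 1.06). The difference between these counts was not tested. In all PPGLs against NAMs, FOS (log2 FC 3.57, FDR = 0.000571), EGR2 (2.65, FDR = 0.0101), EGR3 (2.50, FDR = 0.0231) and PLAUR (2.07, FDR = 0.0254) were among the higher, and NR4A1 (-1.87, FDR = 0.0153) and VGF (-1.60, FDR = 0.0197), which encodes a secretory protein of neurons and endocrine cells, were lower. Between the groups 0 were called higher and 4 (25.0%) lower in group 1, against 3.97% and 2.95% of all genes, with a median log2 FC of -1.50 against 0.04, namely FOSL1 (-3.61, FDR = 0.0313), DUSP4 (-2.69, FDR = 0.0366), TRIB1 (-2.29, FDR = 0.0334) and VGF (-2.02, FDR = 0.0874). VGF had a median of 162 CPM in NAMs, 71.2 CPM in group 2 and 29.3 CPM in group 1.

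Scores of 8 cell type lists, each the mean log2 CPM of its markers, were set against the 6 genes in the 19 PPGLs and, apart, in the 10 NAMs. Of these 96 correlations, 0 had a Spearman rho with an adjusted permutation p below 0.05, and 1 had such a Pearson r, that of BDNF with the endothelial score in NAMs (r -0.89, permutation p = 0.000510, adjusted p = 0.0490, rho -0.87, p = 0.00226, adjusted p = 0.101, and r -0.70 without the 2 farthest samples), which rests on low counts. Among the next strongest were those of NTF3 in the PPGLs. With the chromaffin score r was -0.64 (permutation p = 0.00295, adjusted p = 0.0715) and rho -0.66 (p = 0.00269, adjusted p = 0.101), with -0.71 within each group and -0.49 without the 2 farthest tumors. With the leukocyte score r was 0.64 (permutation p = 0.00298, adjusted p = 0.0715) and rho 0.64 (p = 0.00382, adjusted p = 0.101), with 0.68 within group 1, 0.76 within group 2 and 0.52 without the 2 farthest tumors. Close to this were the endothelial score, with r 0.62 (permutation p = 0.00483, adjusted p = 0.0773) and 0.62 within each group, and the mural cell score, with r 0.56 (permutation p = 0.0104, adjusted p = 0.101) and 0.78 and 0.52 within the groups.

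NGFR and the neuron score had an r of 0.64 over the 19 PPGLs (permutation p = 0.00281, adjusted p = 0.0715) and a rho of 0.57 (p = 0.0129, adjusted p = 0.155), with r 0.53 within group 1, 0.43 within group 2 and 0.64 without the 2 farthest tumors. SORT1 and the same score had an r of -0.62 (permutation p = 0.00459, adjusted p = 0.0773), but of 0.03 within group 1 and -0.22 within group 2, and in the NAMs r was -0.78 (permutation p = 0.0103, adjusted p = 0.101) and -0.81 without the 2 farthest samples. The 10 neuron markers summed to between 658 and 1485 CPM in NAMs, between 1067 and 1899 CPM in group 1 and between 285 and 889 CPM in group 2. The sums of the PPGL groups did not overlap, but they are led by a few abundant genes. The neuron score did overlap, with 4.70 to 6.17 in group 1 and 2.50 to 5.11 in group 2. The most abundant marker was NEFM in NAMs, STMN2 in group 1 and SNAP25 in group 2. Of the 10, 1 was called higher and 0 lower in group 1 against group 2 (3.97% and 2.95% of all genes), ISL1, a transcription factor gene of sympathetic and sensory neurons (log2 FC 5.02, FDR = 0.0244), and 3 higher and 2 lower in PPGLs against NAMs (22.3% and 15.2% of all genes). The part of neuron-type transcripts in the difference of NGFR was not tested.

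The remaining lists are given beside the shares of all genes called higher and lower, 22.3% and 15.2% in PPGLs against NAMs and 3.97% and 2.95% between the groups. Of the 12 chromaffin markers 2 were called higher and 1 lower in PPGLs, of the 7 fibroblast markers 4 higher and 0 lower, of the 7 mural cell markers 4 higher and 0 lower, of the 7 endothelial markers 0 higher and 4 lower, and of the 7 leukocyte markers tested 1 higher and 1 lower. Between the groups 1 of the chromaffin markers was called higher and 1 of the mural cell markers lower in group 1, and 0 of the fibroblast, endothelial and leukocyte markers were called in either direction (edgeR). Leukocyte markers, led by CD74, summed to a median of 742 CPM in NAMs, 385 CPM in group 1 and 539 CPM in group 2, with a highest value of 3308 CPM in group 2. Fibroblast markers summed to a median of 423 CPM in NAMs, 511 CPM in group 1 and 976 CPM in group 2.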

How the data were processed

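RNA of 10 NAMs and 19 PPGLs had been sequenced from stranded mRNA libraries as single-end reads of 50 bp. The unit is a count, since the authors deposited raw counts of reads on the exons of each gene, aligned to CanFam3.1 with STAR. The submitters' processing notes also name FastQC, Picard and HTSeq, whereas the label of the deposited counts names featureCounts. Which program made the counts is therefore unclear, and they were taken as deposited. The strand setting of the counting is not given in the sources used here.

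Totals ranged from 18208718 to 35918182 counts per sample. Genes were filtered with filterByExpr (minimum count 10, minimum total 15) and normalized by TMM in edgeR 4.0.16 (R 4.3.3, limma 3.58.1). The two-sided quasi-likelihood F test was run on PPGLs against NAMs in all 29 samples, on the groups in the 19 PPGLs, and on each group against NAMs in a fit with 3 groups. Log2 FCs had a prior count of 0.125, SEs were derived from the F statistic, and log2 CPM had a prior count of 2. Correlations used 100000 permutations and an adjustment over 96 tests. Cell type scores were means of log2 CPM. The rank test was the Mann-Whitney U-test.

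Genes named from the lists were those called in PPGLs against NAMs or between the groups, at most 4 of each list for a direction and comparison, by size of log2 FC, and for each of the 6 genes the 3 most like it. NTF4 and the marker genes were named after values were seen, and some genes that met the rule are not named. Of 158 list genes, 8 were not found by name. The genes and lists were chosen with earlier results of these data known. Alternatives were DESeq2's size factors, library size, no filter, a minimum of 1 CPM, DESeq2's Wald test (1.42.0), the Mann-Whitney U-test, each sample left out, only the compared groups, the score of cortical markers as a covariate, a replicate block and, for the correlations, library size and a prior count of 0.5.

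The fits were tested on simulated data, where 4-fold and 8-fold changes were recovered in 96.9% and 95.7% of genes (PPGLs against NAMs, 7 false calls), 76% and 95% (between the groups, 18 false calls) and 75.8% and 89.9% (group 1 against NAMs, 6 false calls). In the simulation a small set of genes was shifted by the same fold in every sample of a group. It held no cortical gradient and no change carried by few tumors, so these rates do not extend to such genes. Python 3.11.15, scipy 1.17.1 and matplotlib 3.10.9 drew the figures and ran the permutations.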

Additional observations from a re-analysis of the deposited data

Results flagged for a closer look

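BDNF in replicate 3 of the NAMs stood apart from the other 9 NAMs. Its gap to the next NAM made up 0.468 of the range of log2 CPM in the group, just past Dixon's critical value of 0.466 for 10 samples. Gaps were examined for 6 genes in 2 groups, and chance alone marks about 1 in 20 groups. Group 2, with 12 tumors, was not examined.

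The effect against NAMs differed between the PPGL groups for 3 of the 5 genes tested by edgeR in group 1 against group 2, where 3.97% of all genes were called higher and 2.95% lower. The log2 FC between them was -1.97 for NTRK3, 3.30 for NGFR and -0.95 for SORT1. For NTRK3 both groups lay below the NAMs. The groups were drawn from the same samples, so these values describe them.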

How the results depend on the processing

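Of 680 values of the 6 genes under an alternative, 622 kept their direction and side of the threshold, among them all under DESeq2's size factors, library size, no filter and a minimum of 1 CPM (under the last, BDNF had no value and NTF3 had none in PPGLs against NAMs). With library size only, the median log2 FC over all genes in group 1 against NAMs was 0.24 in place of 0.13. The causes of the changes below were not tested.

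With the cortical score as a covariate, genes higher and lower numbered 1051 and 858 in PPGLs against NAMs, 10 and 85 between the groups, 3 and 2 in group 1 against NAMs, and 472 and 284 in group 2 against NAMs. The score of group 1 (0.73 to 4.12) does not overlap that of the NAMs (9.16 to 11.29), so SEs rose, to 2.06 for NGFR, 1.88 for NTRK3 and 1.85 for NTF3 in group 1 against NAMs, and lost calls there carry no weight. Of the values below only that of NGFR in PPGLs against NAMs was called, and this call does not separate cortical tissue from the group either. In PPGLs against NAMs, the log2 FC was -0.98 for NTRK3, -3.09 for NGFR (reversed and called) and 1.32 for NTF3. Between the groups it was 0.74 for NTRK2, -1.24 for NTRK3, 2.48 for NGFR, -2.03 for NTF3 and -1.34 for SORT1. In group 1 against NAMs it was 0.02 for NTRK2, -1.71 for NTRK3, 0.50 for NGFR, -0.62 for NTF3 and -0.99 for SORT1. In group 2 against NAMs it was -1.22 for NTRK3, -2.06 for NGFR and 0.76 for NTF3.

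Nothing in the labels pairs the replicate numbers of different groups. Correlations of the deviations of same-numbered samples ran from -0.07 to 0.04 between NAMs and group 1, -0.23 to 0.25 between NAMs and group 2, and -0.12 to 0.05 between the groups. Of the 10 pairs of NAMs and group 2, 2 were over 0.1, and no pair of the other comparisons was. In the same order, 0, 2 and 0 samples correlated best with their own number. With the replicate block, genes higher and lower between the groups numbered 10 and 37, and genes higher in group 1 against NAMs 1921. The log2 FC with the block was -1.48 for NTRK2 (called) and -0.56 for NGFR in PPGLs against NAMs, -1.48 for NTRK3, 2.33 for NGFR and -0.95 for SORT1 between the groups, 1.25 for NGFR and 2.24 for NTF3 in group 1, and -1.64 for NGFR and 1.68 for NTF3 in group 2 against NAMs, and all of these but that of NTRK2 were not called, also where the log2 FC was unchanged.

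DESeq2's Wald test gave 916 higher and 877 lower genes between the groups, and in PPGLs against NAMs log2 FCs of -0.25 for NGFR and -1.66 for BDNF (called). The Mann-Whitney U-test gave 160 and 226 genes between the groups, called NTRK2 in PPGLs (log2 FC -0.82) and did not call NTRK3 (-1.97) and NGFR (3.30) between the groups. With only the compared groups, NGFR in group 1 against NAMs was 1.72 and not called.

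With each sample left out, the log2 FC in PPGLs against NAMs ran from -0.22 to 0.70 for NGFR, -1.84 to -0.52 for BDNF and -0.02 to 0.12 for SORT1. Between the groups it ran from -1.0 to 0.11 for NTRK2, -2.47 to -1.81 for NTRK3 and -0.60 to 0.61 for NTF3, and genes higher and lower numbered 256 to 733 and 269 to 485, fewest without replicate 7 of group 1. In group 1 against NAMs it ran from 0.93 to 1.93 for NGFR and 1.35 to 2.52 for NTF3, and in group 2 from -1.85 to -1.39 for NGFR. The number of correlations past the threshold by rho was 0 under each alternative. BDNF, NTF3 and NTF4 were close to the limit of 3 counts in many samples, so their fold changes are imprecise.

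NTRK3 between the groups was not called without replicate 1 (-1.88), 2 (-1.83), 3 (-1.83), 4 (-1.86), 5 (-1.87) or 7 (-2.12) of group 1, or replicate 2 (-1.87) or 4 (-1.81) of group 2. BDNF in PPGLs against NAMs was called without replicate 1 (-1.74), 7 (-1.75) or 9 (-1.73) of the NAMs, replicate 1 (-1.71) or 7 (-1.70) of group 1, or replicate 1 (-1.76), 10 (-1.84) or 11 (-1.69) of group 2.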
